A study of Mus musculus with 20 samples.

Results

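Disease-associated microglia are microglia that leave their resting state near damaged or degenerating tissue. The 7 genes described here, Trem2, Tyrobp, Clec7a, Itgax, Cd9, Cd63 and Cst7, are commonly used to recognise them. They were taken by symbol from a single-cell count table of 16003 genes, and all 7 were in it. For each gene the raw unique molecular identifiers (UMIs, 1 per captured RNA molecule) were summed over the cells of each deposited cluster and library, and divided by all UMIs of that cluster and library to give CPM, UMIs scaled to a total of 1000000.

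The cells came from 1 cm of thoracic spinal cord of female C57BL/6J mice that were 8 to 10 weeks old when bought. The mice ate vehicle chow or chow with PLX5622 (1200 ppm per the labels, though the study's methods also state another concentration), an inhibitor of the CSF1 receptor that microglia need to survive, for 2 weeks before a T9 contusion spinal cord injury (SCI) or a sham operation, and stayed on it until the tissue was taken at 7 or 28 days post-injury (dpi). There were 6 libraries, a sham, a 7 dpi and a 28 dpi library for each diet. Each library pooled cords of 3 to 4 mice, and the labels of the sham libraries give both days. Every mouse was operated on, and the cords were dissociated without perfusion, so blood cells could be carried over. PLX5622 acts on every cell that uses CSF1R, and not on microglia alone. Since each condition was a single library, no replicate check was possible. All intervals below are exact 95% intervals of counting error only, and a difference between libraries is given as a log2 ratio with its interval and with no test. Both injured time points were set against the same sham library.

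The table held 21016 cells, with 492 to 9846 cells and 2606149 to 35694246 UMIs per library, and 44 cell barcodes occurred in more than 1 library. Clusters were named from fixed marker genes as microglia-like, monocyte-derived macrophage (MDM)-like and so on. They were formed from these same cells, so that differences between clusters are descriptions. The microglia-like cluster had 674, 2154 and 3974 cells in the vehicle sham, 7 dpi and 28 dpi libraries and 29, 61 and 126 cells in the matching PLX5622 libraries. The MDM-like cluster had 185, 3023 and 3313 cells in the vehicle libraries and 9, 100 and 161 cells in the PLX5622 libraries. The 9 cells of the PLX5622 sham library were too few to rank, and the MDM-like values of that library are left out below.

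The 7 genes have linked roles. TREM2 is a surface receptor for lipids, lipoproteins and cell debris, and it signals through the adaptor TYROBP (DAP12), whose phosphorylated tyrosines recruit the kinase SYK. CLEC7A (dectin-1) binds beta-glucans and other ligands and also signals through SYK, and ITGAX (CD11c) pairs with the integrin chain ITGB2 as a receptor for complement fragments. CD9 and CD63 are tetraspanins, membrane proteins that organise other proteins at the cell surface and in late endosomes and lysosomes. CST7 (cystatin F) is an inhibitor of lysosomal cysteine proteases such as cathepsins C and L. In the usual account of these cells, resting genes such as P2ry12 go down first, Tyrobp and Apoe go up in a first stage, and Trem2, Clec7a, Itgax, Cd9 and Cst7 mark a later stage that requires TREM2. Cd63 is also commonly raised in these cells.

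RefSeq promoter windows on GRCm38.p6 were found for 6 of the 7 genes, and Tyrobp had none. The 250 bases before the start are printed 5′ to 3′ on the gene's strand for 4 of them. Clec7a, Itgax and Cst7 are shown because their levels moved in opposite directions in the microglia-like and MDM-like clusters at 7 dpi, and Trem2 because it is the receptor that the later stage requires and its level stayed within 2-fold. Capitals mark a match on either strand to GAGGAA (bound by PU.1, a factor that macrophages need, and by other ETS factors), CACGTG (the E-box of MiT/TFE factors, which control lysosomal genes) or TGANTCA (bound by AP-1). The regions are chr6:129472786-129473035 on the minus strand for Clec7a, and chr7:128129300-128129549, chr2:150570165-150570414 and chr17:48346151-48346400 on the plus strand for Itgax, Cst7 and Trem2.
Clec7a: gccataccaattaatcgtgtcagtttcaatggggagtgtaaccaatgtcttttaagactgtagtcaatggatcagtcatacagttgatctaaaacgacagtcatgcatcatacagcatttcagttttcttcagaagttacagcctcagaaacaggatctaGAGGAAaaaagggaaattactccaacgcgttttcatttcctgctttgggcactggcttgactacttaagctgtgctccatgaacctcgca
Itgax: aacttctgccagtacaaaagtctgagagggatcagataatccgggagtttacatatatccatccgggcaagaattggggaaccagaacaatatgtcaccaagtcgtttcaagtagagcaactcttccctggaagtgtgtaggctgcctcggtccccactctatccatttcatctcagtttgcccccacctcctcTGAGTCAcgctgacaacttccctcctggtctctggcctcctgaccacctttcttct
Cst7: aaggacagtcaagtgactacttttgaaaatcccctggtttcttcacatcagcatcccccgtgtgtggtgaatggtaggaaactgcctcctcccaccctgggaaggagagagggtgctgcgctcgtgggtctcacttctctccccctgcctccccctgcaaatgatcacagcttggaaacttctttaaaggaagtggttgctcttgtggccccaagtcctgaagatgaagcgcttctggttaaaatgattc
Trem2: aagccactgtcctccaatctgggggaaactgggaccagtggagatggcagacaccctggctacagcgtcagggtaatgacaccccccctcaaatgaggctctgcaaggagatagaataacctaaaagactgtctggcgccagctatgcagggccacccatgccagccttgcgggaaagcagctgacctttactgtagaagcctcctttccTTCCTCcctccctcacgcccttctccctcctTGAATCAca
Clec7a held 1 GAGGAA that began 90 bases before the start in this window. Itgax held 1 TGANTCA, 56 bases before the start. Trem2 held 1 GAGGAA on the other strand, 40 bases before the start, and 1 TGANTCA 9 bases before it. Cst7 held none of the 3 motifs, and CACGTG occurred in none of the members' windows. Of 32851 RefSeq windows of the same length, 23.25% held GAGGAA, 6.021% held CACGTG and 6.749% held TGANTCA. These are matches of letters, and binding was not measured.

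Most of the members' UMIs sat in the macrophage clusters, which held 21.8% (microglia-like) and 47.1% (MDM-like) of the UMIs of all genes. The microglia-like and MDM-like cells together held 29.44% and 59.89% of all Trem2 UMIs, 24.58% and 61.52% of those of Tyrobp, and 33.13% and 54.52% of those of Cst7. For Itgax the shares were 16.18% and 70.79%, for Clec7a 19.37% and 68.71%, for Cd63 17.47% and 69.45%, and for Cd9 26.04% and 57.86%. The remaining cells are described after the macrophages.

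In the microglia-like cells of vehicle-fed mice, 5 of the 7 genes were more than 2-fold higher after SCI than after sham at both times. These were Cst7, Clec7a, Itgax, Cd63 and Tyrobp, whereas Trem2 and Cd9 stayed within 2-fold. In the MDM-like cells none of the 7 was 2-fold higher at 7 dpi, and Cd9 and Cst7 were more than 2-fold lower. For Cst7 the log2 ratio was -1.09 with an interval of -1.20 to -0.98, and it was short of 2-fold under several alternatives given below. The values of each gene follow, by role.

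**Figure D1:**
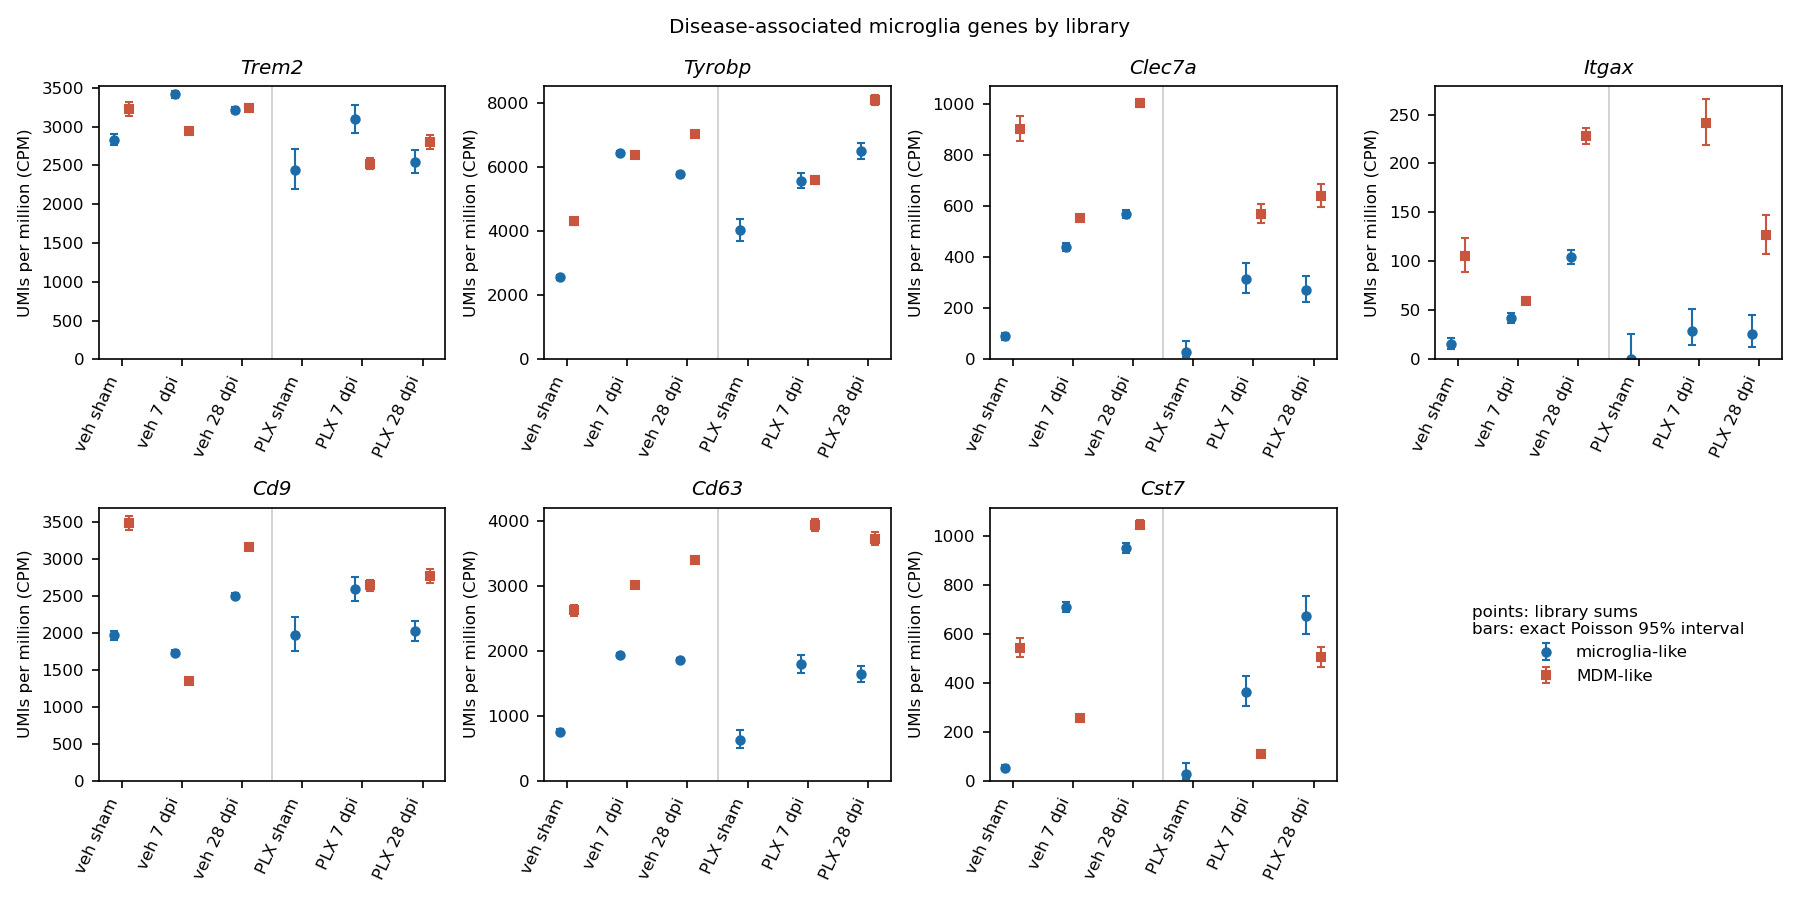
Level of each gene in CPM (linear axis from 0) in the microglia-like (circles) and MDM-like (squares) cells of the 6 libraries, vehicle (veh) to the left and PLX5622 (PLX) to the right of the line. Points are library sums and bars are exact Poisson 95% intervals. Cst7 in microglia-like cells went from 54.4 CPM after vehicle sham to 710 CPM at 7 dpi, while in MDM-like cells it went from 542 to 255 CPM.

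Trem2 (chr17:48346401-48352276), the lipid receptor, was at 2829, 3415 and 3219 CPM in the microglia-like cells of vehicle sham, 7 dpi and 28 dpi, and at 2443, 3094 and 2545 CPM in the same PLX5622 libraries. In MDM-like cells it was at 3227, 2946 and 3238 CPM under vehicle and at 2522 and 2801 CPM at 7 and 28 dpi under PLX5622. All of these levels lay within 2-fold of each other, in both clusters. The log2 ratio to sham in microglia-like cells was 0.27 at 7 dpi and 0.19 at 28 dpi, and in MDM-like cells it was -0.13 at 7 dpi and 0.00 at 28 dpi; with trimmed-mean (TMM) scaling the 7 dpi value in MDM-like cells turned to 0.18.

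Tyrobp (chr7:30413782-30417582), the adaptor through which TREM2 signals, was at 2556, 6454 and 5786 CPM in microglia-like cells of the vehicle libraries and at 4031, 5582 and 6506 CPM under PLX5622. The vehicle sham value was the lowest of the 6, and the 4 injured libraries lay above both sham libraries. The log2 ratio to vehicle sham was 1.34 at 7 dpi and 1.18 at 28 dpi, so the adaptor and its receptor differed in how far they moved. In MDM-like cells Tyrobp was at 4308, 6393 and 7027 CPM under vehicle, which was 0.57 and 0.71 above sham on the log2 scale, and at 5599 and 8087 CPM at 7 and 28 dpi under PLX5622. Neither MDM-like ratio to sham reached 2-fold.

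Clec7a (chr6:129461591-129472785), or dectin-1, was at 90.2, 440 and 570 CPM in the microglia-like cells of vehicle sham, 7 dpi and 28 dpi. Under PLX5622 it was at 28.2 CPM after sham (4 UMIs, interval 7.69 to 72.3), 316 CPM at 7 dpi and 272 CPM at 28 dpi. The injured libraries were far above both sham libraries. Relative to vehicle sham the log2 ratio was 2.29 at 7 dpi (interval 2.07 to 2.51) and 2.66 at 28 dpi (interval 2.45 to 2.88). The MDM-like cells of vehicle sham already held 905 CPM, against 555 CPM at 7 dpi and 1005 CPM at 28 dpi, and those of PLX5622 held 571 and 642 CPM at 7 and 28 dpi. Their log2 ratio to sham was -0.71 at 7 dpi (interval -0.79 to -0.62) and 0.15 at 28 dpi. After sham Clec7a was thus 3.33 log2 units higher in MDM-like than in microglia-like cells, and at 7 dpi the gap was 0.33.

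Itgax (chr7:128129526-128150657), or CD11c, had the fewest UMIs of the 7 genes in the microglia-like cells. It was at 15.7 (10.8 to 22.1), 42.1 (37.3 to 47.3) and 104 CPM in vehicle sham, 7 dpi and 28 dpi. Under PLX5622 it had 0 UMIs after sham, which allows up to 26.0 CPM, and 28.7 and 25.6 CPM at 7 and 28 dpi, each from 11 UMIs. The vehicle libraries were thus ordered sham, 7 dpi, 28 dpi with intervals that did not overlap, and both injured PLX5622 libraries had intervals that overlapped those of vehicle sham. Against vehicle sham this was a log2 ratio of 1.42 at 7 dpi (interval 0.89 to 1.98) and 2.72 at 28 dpi (interval 2.22 to 3.27). In MDM-like cells it was at 106, 60.0 and 228 CPM under vehicle, with log2 ratios to sham of -0.82 at 7 dpi (interval -1.06 to -0.56) and 1.11 at 28 dpi (interval 0.87 to 1.35).

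Cd9 (chr6:125460266-125494760), a tetraspanin of the cell surface, was at 1969, 1734 and 2508 CPM in the microglia-like cells of the vehicle libraries and at 1977, 2596 and 2031 CPM under PLX5622. Its log2 ratio to vehicle sham was -0.18 at 7 dpi, which turned to 0.42 with TMM scaling, and 0.35 at 28 dpi. In MDM-like cells it was at 3490, 1352 and 3169 CPM under vehicle and at 2647 and 2771 CPM at 7 and 28 dpi under PLX5622. Vehicle 7 dpi was the low library, at a log2 ratio to sham of -1.37 (-1.41 to -1.32), and at 28 dpi the ratio was -0.14, or 0.14 with TMM scaling.

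Cd63 (chr10:128896231-128912822), a tetraspanin of late endosomes and lysosomes, was at 761, 1942 and 1859 CPM in the microglia-like cells of the vehicle libraries and at 635, 1797 and 1650 CPM under PLX5622. Both sham libraries were low and all 4 injured libraries were high. Relative to vehicle sham the log2 ratio was 1.35 at 7 dpi (interval 1.28 to 1.43) and 1.29 at 28 dpi. MDM-like cells held 2633, 3026 and 3407 CPM under vehicle and 3945 and 3737 CPM at 7 and 28 dpi under PLX5622, and none of their ratios to sham reached 2-fold. The 2 tetraspanins therefore differed after injury in microglia-like cells, where Cd63 passed 2-fold and Cd9 did not.

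Cst7 (chr2:150570415-150578944), the inhibitor of lysosomal cathepsins, moved most. In the microglia-like cells it was at 54.4 (44.9 to 65.3), 710 and 951 CPM in vehicle sham, 7 dpi and 28 dpi, and at 28.2, 363 and 675 CPM under PLX5622, where the sham value came from 4 UMIs. Against vehicle sham the log2 ratio was 3.71 at 7 dpi (interval 3.44 to 3.99) and 4.13 at 28 dpi (interval 3.86 to 4.41). The 7 dpi value was above 99.5% of the genes compared. In MDM-like cells Cst7 was at 542, 255 and 1047 CPM under vehicle and at 111 and 505 CPM at 7 and 28 dpi under PLX5622, so that the 7 dpi library was the lowest under vehicle and lay below 28 dpi under PLX5622 as well. Their log2 ratio to sham was -1.09 at 7 dpi (interval -1.20 to -0.98) and 0.95 at 28 dpi (interval 0.84 to 1.06). Within a library, MDM-like over microglia-like cells gave a log2 ratio of 3.32 after vehicle sham, -1.48 at vehicle 7 dpi, 0.14 at vehicle 28 dpi, -1.71 at PLX5622 7 dpi and -0.42 at PLX5622 28 dpi. Cst7 was the only member for which these 5 ratios went from well above 0 after sham to past 2-fold below 0 at 7 dpi.

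A gene was called past 2-fold only where it had at least 100 UMIs in both libraries together. In the microglia-like cells at 7 dpi over vehicle sham, 5 of the 7 members were called higher, against 4.02% of the 6623 genes compared, and 0 were called lower, against 21.5% of all genes. The median log2 ratio was 1.35 over the members and -0.54 over all genes. At 28 dpi 5 of the 7 were higher, against 3.62% of 7162 genes, and 0 were lower, against 12.5%, with medians of 1.29 and -0.44. The negative medians of all genes went with a large gain of the abundant gene Apoe, from 9039 to 80171 CPM at 7 dpi. How much of the medians such gains make up was not tested. TMM scaling moved every microglia-like ratio to sham up by 0.60 at 7 dpi and 0.46 at 28 dpi, and every MDM-like one by 0.31 and 0.28.

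In the MDM-like cells at 7 dpi over vehicle sham, 0 of the 7 members were called higher, against 4.09% of 8303 genes, and 2 were called lower, against 11.0%. The median was -0.71 over the members and -0.25 over all genes. At 28 dpi 1 member, Itgax, was higher, against 1.53% of 7714 genes, and 0 were lower, against 5.63%, with medians of 0.37 and -0.25. Itgax was short of 2-fold, at 0.86, with each cell weighted alike and, at 0.97, without cells with UMIs of other cell types. The Cst7 ratio at 7 dpi was short of 2-fold under 6 of 9 alternatives, at -0.78 to -0.99. Set against each other in comparisons added after these values had been seen, 28 dpi over 7 dpi gave log2 ratios in MDM-like cells of 2.04 for Cst7, 1.93 for Itgax, 1.23 for Cd9 and 0.86 for Clec7a, and 0.14 to 0.17 for the other 3. In microglia-like cells the ratio was 1.31 for Itgax, and from -0.16 to 0.53 for the other 6. Without cells with UMIs of the MDM markers the Itgax ratio was 0.11.

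**Figure D2:**
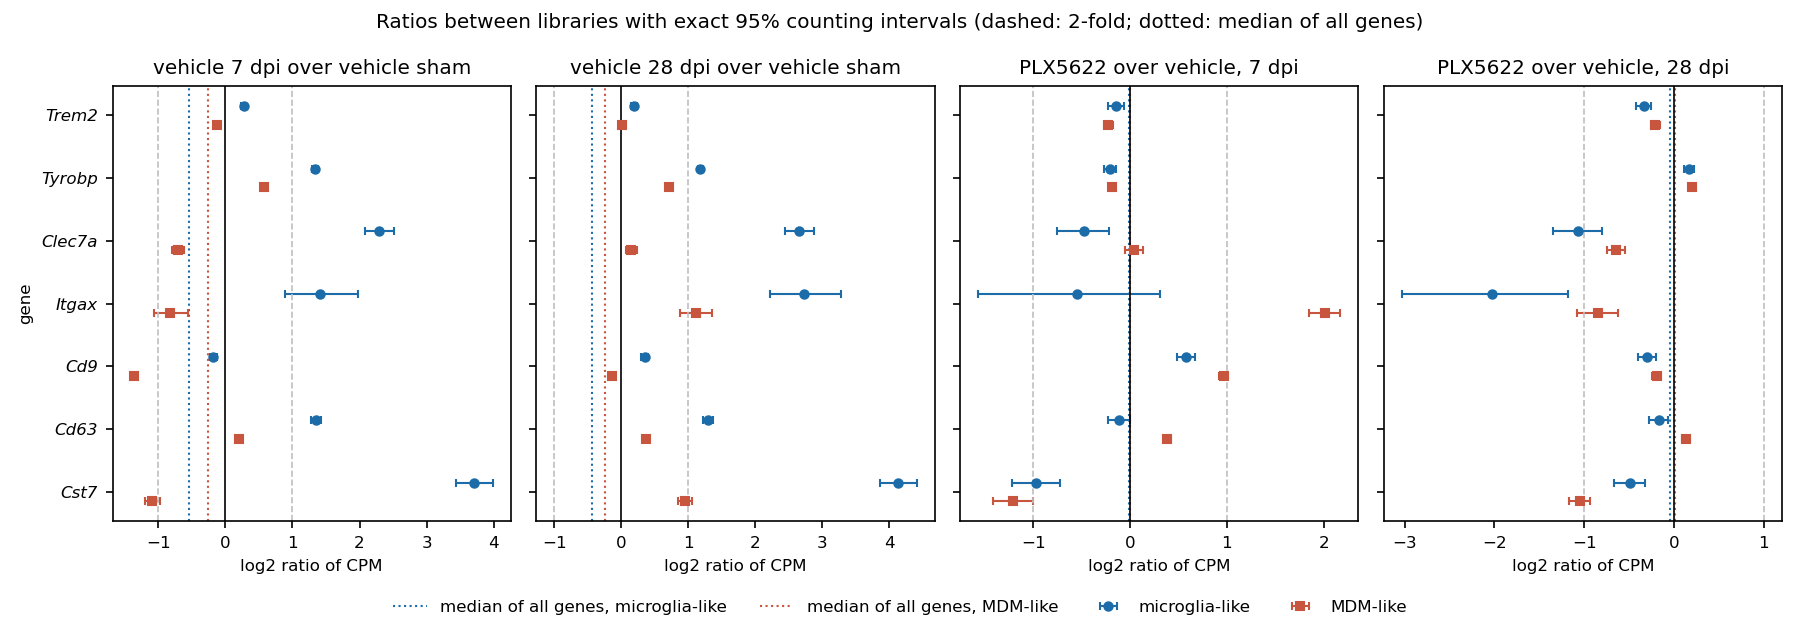
Log2 ratio of CPM between libraries for each gene, in microglia-like (circles) and MDM-like (squares) cells, for 4 comparisons, each panel on its own axis. Bars are exact 95% counting intervals, dashed lines mark 2-fold and dotted lines the median of all genes compared. At 7 dpi over vehicle sham Clec7a, Itgax and Cst7 lie above 0 in microglia-like cells (2.29, 1.42 and 3.71) and below 0 in MDM-like cells (-0.71, -0.82 and -1.09).

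The cells of the sham and injured libraries also differed in ways that bear on these ratios. The 6 MDM marker genes summed to 59.6 CPM in the microglia-like cells of vehicle sham and to 4286 and 4252 CPM at 7 and 28 dpi, and cells with 3 or more of these UMIs were 0.890%, 68.7% and 50.3% of the cluster. When such cells were left out, an alternative chosen after the data had been seen, the log2 ratios to sham at 7 dpi were 3.13 for Cst7, 1.91 for Clec7a, 1.51 for Itgax, 1.20 for Tyrobp and 1.04 for Cd63, all still past 2-fold. At 28 dpi they were 3.38, 1.97 and 1.62 for Cst7, Clec7a and Itgax, and 0.93 for Tyrobp and 0.76 for Cd63, so that 3 members remained past 2-fold. These markers include Gpnmb, Spp1 and Fabp5, which microglia are themselves known to raise near damage, so that leaving such cells out can also remove microglia with the members' programme. The 6 microglia markers summed to 7709, 1827 and 2405 CPM in the same cells. In MDM-like cells of vehicle sham, 81.1% held 3 or more UMIs of the microglia markers, against 26.7% at 7 dpi and 31.8% at 28 dpi, and leaving these out kept 35 sham cells and a Cst7 ratio of -0.79 at 7 dpi and 2.21 at 28 dpi. Genes known to respond to tissue dissociation summed to 10610, 2380 and 2042 CPM in the microglia-like cells of vehicle sham, 7 dpi and 28 dpi, and to 3921, 1151 and 1062 CPM in the MDM-like cells. Their part in the members' ratios was not tested.

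Under PLX5622 the MDM-like cells differed from vehicle in Itgax, Cst7 and, just short of 2-fold, Cd9. Itgax was at 242 CPM at PLX5622 7 dpi against 60.0 CPM under vehicle, a log2 ratio of 2.01 (1.85 to 2.17), and at 127 against 228 CPM at 28 dpi, a ratio of -0.85. Cst7 was at 111 (95.5 to 127) against 255 CPM at 7 dpi, a ratio of -1.21, and at 505 against 1047 CPM at 28 dpi, a ratio of -1.05 (-1.17 to -0.94). Cst7 was thus below vehicle at both times, while Itgax was above vehicle at 7 dpi and below it at 28 dpi. Once the cells were thinned to 1000 UMIs, the Cst7 ratios were -0.58 and -0.80, short of 2-fold. Without the cells that held 3 or more UMIs of the microglia markers they were -2.35 and -1.90, so that Cst7 stayed below vehicle in value but by very different amounts. The median depth of the PLX5622 7 dpi MDM-like cells was 15945 UMIs, the deepest of the MDM-like groups.

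At 7 dpi Cd9 was 0.97 log2 units above vehicle in these cells, and the ratios of the other 4 lay between -0.22 and 0.38. At 28 dpi the ratios of the 5 members other than Cst7 and Itgax lay between -0.65 for Clec7a and 0.20 for Tyrobp. In all, 1 of 7 members was called higher at 7 dpi, against 1.83% of 8295 genes, and 1 was called lower, against 2.17%. At 28 dpi 0 were higher, against 2.33% of 7635 genes, and 1 was lower, against 2.48%. From 7 to 28 dpi under PLX5622, a comparison added later, Cst7 rose by a log2 ratio of 2.19 while Itgax changed by -0.93.

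In the microglia-like cells left under PLX5622, Clec7a, Itgax and Cst7 lay below vehicle in value at both times after injury, and Trem2, Tyrobp and Cd63 differed little. At 7 dpi the log2 ratio of PLX5622 over vehicle was -0.97 (-1.22 to -0.73) for Cst7, -0.48 for Clec7a, -0.55 (-1.57 to 0.31) for Itgax and 0.58 for Cd9. None of the 7 was called higher (1.89% of 5616 genes) or lower (4.88%). At 28 dpi it was -1.07 (-1.34 to -0.80) for Clec7a and -2.02 (-3.03 to -1.18) for Itgax, and -0.50 for Cst7. Here 2 of 7 were called lower, against 5.87% of 6359 genes, and 0 higher, against 1.64%. The Itgax ratio rested on 11 UMIs under PLX5622, and with each cell weighted alike it was -0.69.

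Among the sham libraries, in a comparison added later, Clec7a in microglia-like cells was -1.67 (-3.57 to -0.29) log2 units from vehicle under PLX5622 and Cst7 was -0.95 (-2.85 to 0.45), from 29 cells with 4 UMIs of each gene under PLX5622. On thinning the Clec7a ratio turned to 0.21, so its direction is not settled. Against that PLX5622 sham library, Cst7 was 3.68 higher at 7 dpi and, with an interval of 3.21 to 6.46, 4.58 higher at 28 dpi on the log2 scale, Clec7a 3.48 and 3.27, and Cd63 1.50 and 1.38. With thinned cells the Clec7a ratios were 1.80 and 1.47. The same 3 genes were therefore past 2-fold above sham under both diets. Tyrobp was past 2-fold above sham only under vehicle, and under PLX5622 its log2 ratio was 0.47 at 7 dpi and 0.69 at 28 dpi. In the sham libraries Tyrobp was 0.66 (0.53 to 0.78) log2 units higher under PLX5622 than under vehicle. Itgax had 0 UMIs after PLX5622 sham and could not be judged. The MDM markers were also higher after injury in the PLX5622 microglia-like cells, at 14.1 CPM after sham and 2006 and 933 CPM at 7 and 28 dpi.

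At equal depth the shares of cells with a UMI were ordered as the levels in vehicle microglia-like cells for Cst7, Clec7a and Itgax. Each cell was thinned to 1000 UMIs, and cells with fewer were left out. These were 126 of 674, 170 of 2154 and 906 of 3974 microglia-like cells in vehicle sham, 7 dpi and 28 dpi. Among astrocyte-like cells of vehicle 28 dpi they were 98 of 245. Cst7 was found in 4.01%, 38.5% and 46.1% of the thinned microglia-like cells of vehicle sham, 7 dpi and 28 dpi. Under PLX5622 it was found in 20.4% and 35.4% at 7 and 28 dpi. Without thinning the vehicle shares of Cst7 were 10.2%, 61.4% and 53.7%, in another order than the levels. Clec7a was found in 6.20%, 30.9% and 36.7% of the thinned vehicle cells, and Itgax in 0.912%, 4.28% and 8.54%. Trem2 was found in 90.9%, 94.4% and 92.8% of the same cells, so that most microglia-like cells had a Trem2 UMI in the sham and the injured libraries. In MDM-like cells of the vehicle libraries Cst7 was found in 28.0%, 17.4% and 55.1% of the thinned cells. In astrocyte-like cells, which should lack these genes, the thinned shares in vehicle sham, 7 dpi and 28 dpi were 0.444%, 7.84% and 25.9% for Cst7, 0%, 11.8% and 26.5% for Clec7a, 0%, 0% and 4.76% for Itgax and 5.33%, 51.0% and 44.9% for Trem2, at median depths of 2024, 2057 and 1149 UMIs. These background shares were also higher after injury, and each lay below that of microglia-like cells in the same library.

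UMIs of several members were also found together in single cells, which does not show that the cell expressed them all. At 1000 UMIs per cell, 5 or more of the 7 genes had a UMI in 30 of 548 microglia-like cells of vehicle sham (5.5%, exact Clopper-Pearson interval 3.7 to 7.7), in 40.9% of 1984 cells at 7 dpi and in 48.3% of 3068 cells at 28 dpi. Under PLX5622 the shares were 1 of 25 cells after sham, 27.8% of 54 cells at 7 dpi and 33.6% of 113 cells at 28 dpi. The MDM-like cells began high, at 53.1% of 175 cells after vehicle sham, and had 33.8% at 7 dpi and 73.6% at 28 dpi. Under PLX5622 they had 39.4% and 56.0% at 7 and 28 dpi. Clec7a and Cst7 occurred together in 1 microglia-like cell of vehicle sham (0.2%), and in 12.5% and 20.0% of the cells at 7 and 28 dpi. The share of cells with each gene alone, given above, was also higher after injury. Whether Clec7a and Cst7 met in a cell more often than those single shares would give was not tested. In astrocyte-like cells, for comparison, 5 or more members had a UMI in 0 of 225 cells after vehicle sham (up to 1.63%). The shares were 13.7% of 51 cells at 7 dpi and 23.1% of 147 cells at 28 dpi. In endothelial-like cells it was 0 of 76 cells (up to 4.74%), 3.01% of 299 and 9.57% of 303. These shares lay below those of microglia-like cells in each library but were higher after injury as well. Cd63 was also measured in astrocyte-like cells without myeloid UMIs, as given below, so their shares are not background alone. In MDM-like cells Clec7a and Cst7 occurred together in 16.6%, 8.4% and 31.7% of the cells of vehicle sham, 7 dpi and 28 dpi. The 7 dpi library was thus the lowest of the vehicle libraries in this measure as well.

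**Figure D3:**
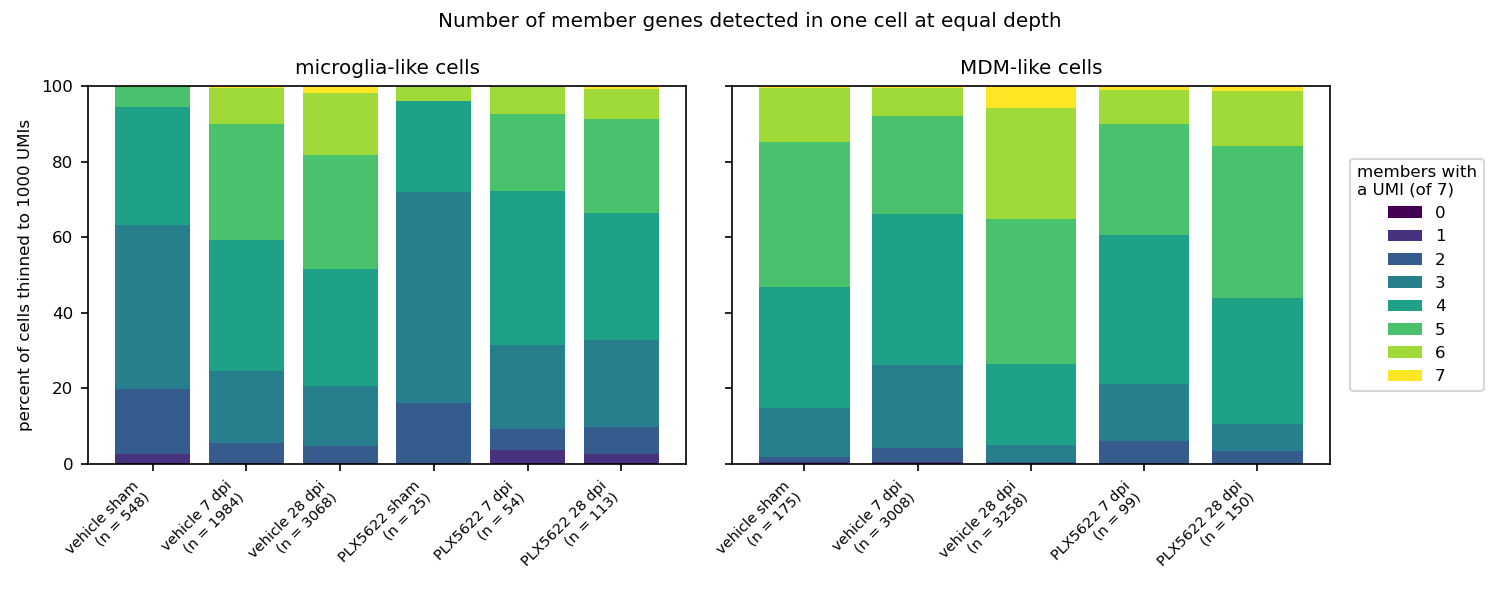
Percent of cells (stacked to 100) by how many of the 7 genes had a UMI once each cell was thinned to 1000 UMIs, in microglia-like (left) and MDM-like (right) cells. The number of cells is under each bar, and the PLX5622 sham MDM-like cells are not shown because there were 9. Cells with 5 or more genes made up 5.5% of microglia-like cells after vehicle sham and 48.3% at vehicle 28 dpi.

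The wider programme moved with the members in microglia-like cells of vehicle-fed mice. Of 7 genes of the first stage, a list that includes Tyrobp, 6 were 2-fold higher at 7 dpi and 0 were lower. The largest ratios were 3.15 for Apoe, a lipid carrier that TREM2 binds, and 2.94 for Lyz2, lysozyme, and the smallest were -0.02 for B2m and 1.04 for Ctsb. Of 12 genes of the later stage, which include all of the members but Tyrobp and Cd63, 8 were higher and 0 lower. Cst7 at 3.71 and Lpl, lipoprotein lipase, at 3.37 led, and Ctsl at -0.22 and Cd9 at -0.18 were lowest. Of 11 homeostatic microglia genes 0 were higher and 7 were lower, from P2ry12, a purinergic receptor, at -2.78 (2410 to 351 CPM) and Siglech at -2.13 to Cst3 at -0.80 and Olfml3 at -0.50. At 28 dpi the counts were 5 of 7 higher, 9 of 12 higher and 9 of 11 lower. The median log2 ratio of the 11 homeostatic genes at 28 dpi was -1.19. TMM scaling adds 0.46 to each ratio at 28 dpi, which brings that median within 2-fold. How many of these genes stay past 2-fold lower with TMM scaling was not counted. Of all genes compared, 4.02% were higher and 21.5% lower at 7 dpi, and 3.62% and 12.5% at 28 dpi. Without the 7 members, 5 of 6 genes of the first list and 5 of 7 of the later list were higher at 7 dpi. Of 12 general myeloid markers 1 was higher and 0 were lower at that time. The lists were drawn up with results of these data known. Their counts were not repeated without the microglia-like cells that held UMIs of the MDM markers.

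Few signalling partners of the receptors were called. Of 11 measured genes of TREM2 signalling, 1 was 2-fold higher at 7 dpi in microglia-like cells. This was Hcst (DAP10), the other adaptor that TREM2 can use, at 1.77, while Grb2 was at -0.31, Syk at -0.65, Vav1 at -0.79 and Pik3cd at -0.83. Of 4 measured genes of dectin-1 signalling, Bcl10 was lower, at -1.03, and Fcer1g was highest, at 0.44. Of 5 measured beta2 integrin genes Itgax was the only one called, and its partner chain Itgb2 was at -0.54 and Itgam, the CD11b chain, at -0.91. The 2 other TYROBP-coupled receptors with enough UMIs were Siglech at -2.13 and Clec5a at -0.88. Among 10 tetraspanins 1 was higher, Cd63, and 2 were lower, Tspan3 at -1.10 and Cd82 just past the limit. Among 9 cystatins and their protease targets 3 were higher, led by Cst7 and by Cstb at 1.74, and 2 were lower, the proteases Lgmn at -1.49 and Ctsc at -1.19. Ctsc, the main protease that CST7 inhibits, thus moved opposite to its inhibitor. Of all genes compared, 4.02% were higher and 21.5% lower, so the shares lower among dectin-1, tetraspanin and cystatin genes were near that background, and the median over all genes was -0.54. With TMM scaling, which adds 0.60 to each, Bcl10, Tspan3, Cd82, Lgmn and Ctsc come within 2-fold, and Grb2, Itgb2, B2m, Ctsl and Olfml3 come to lie above 0.

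In MDM-like cells of the same mice the first-stage list gave 1 gene higher at 7 dpi, Lyz2 at 1.54, and 1 lower, B2m at -1.09. The later-stage list gave 0 higher and 5 lower, which were Ccl6 at -1.73, Csf1 at -1.42, Cd9, Cst7 and Lpl at -1.03. With TMM scaling, which adds 0.31 to each ratio, B2m, Cst7 and Lpl come within 2-fold. Without the members, 0 of 7 later-stage genes were higher and 3 were lower. Of all genes compared, 4.09% were higher and 11.0% lower. All 11 homeostatic genes were lower, from cells in which the microglia markers summed to 1790 CPM after sham and 310 CPM at 7 dpi. At 28 dpi 1 of the 12 later-stage genes, the member Itgax, was higher, against 1.53% of all genes. Under PLX5622 at 7 dpi 3 of these 12 were higher than under vehicle, against 1.83% of all genes, and 1 was lower, against 2.17%. At 28 dpi 3 were lower, against 2.48%. Without the members, 2 of 7 were higher and 0 lower at 7 dpi, and 2 of 7 were lower at 28 dpi. In microglia-like cells 2 of the 12 were lower under PLX5622 at 7 dpi, against 4.88% of all genes. At 28 dpi 3 were lower, against 5.87%. Of the 7 that are not members, 2 were lower at 7 dpi and 1 at 28 dpi. Of the 11 homeostatic genes 0 were called, and all 11 had ratios above 0 at 28 dpi, with a median of 0.37.

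Outside the 2 macrophage clusters, some members were measured in other clusters after sham and others were low there. Proliferating progenitor-like cells held the next largest share of the UMIs of 6 genes, from 3.68% for Clec7a to 6.21% for Cst7, and for Itgax it was the monocyte-like cells, at 4.17%. The proliferating progenitor-like cluster, led by cell cycle genes, held 5.27% of all UMIs. At vehicle 7 dpi 98.7% of its cells had 3 or more UMIs of 12 myeloid genes, which summed there to 31383 CPM. In vehicle sham these genes summed to 6412 CPM. The neutrophil markers summed to 117995, 14344 and 11718 CPM in vehicle sham, 7 dpi and 28 dpi. The members' values in this cluster therefore cannot be told apart from those of dividing macrophages or of neutrophil-lineage cells. Tyrobp was at 2951, 4764 and 3617 CPM in the neutrophil-like and at 2331, 3983 and 3381 CPM in the monocyte-like cells of the vehicle libraries, where it serves other receptors. Clec7a was at 279, 246 and 309 CPM in the same monocyte-like cells and at 222, 249 and 320 CPM in the neutrophil-like cells. Neither gene was near 0 in any of these groups.

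Cst7 was at 227 (174 to 290), 222 and 436 CPM in the T cell-like cells of the vehicle libraries and at 167, 133 and 153 CPM under PLX5622. At vehicle 7 and 28 dpi these levels were 59.8% and 43.1% of that in the macrophage clusters. Other macrophage genes reached 59.1% (Csf1r) at 7 dpi and 45.6% (Fcer1g) at 28 dpi in the same cells. The Cst7 values of the injured vehicle libraries therefore cannot be told apart from macrophage RNA in this cluster. Trem2 was at 72.0, 1324 and 1163 CPM in these vehicle cells and at 0, 164 and 99.3 CPM under PLX5622. The T cell-like Cst7 level after sham was therefore higher than the 54.4 CPM of microglia-like cells and did not follow Trem2; Cst7 is also known from T and natural killer cells.

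Cd9 was highest of all groups with at least 20 cells in oligodendrocyte lineage-like cells of PLX5622 7 dpi, at 5023 CPM over 28 cells, and was at 1807, 2862 and 2312 CPM in these cells of the vehicle libraries. Leaving out cells with 3 or more UMIs of 12 myeloid genes gave 1824, 2754 and 1995 CPM under vehicle and 5016 CPM at PLX5622 7 dpi, so that the level was as high without them. Cd63 was at 990, 1780 and 1811 CPM in the astrocyte-like cells of the vehicle libraries, and at 974, 1054 and 1023 CPM without such cells. In ependymal-like cells Cd63 was at 816, 965 and 1023 CPM under vehicle and 780, 915 and 774 CPM under PLX5622. Both tetraspanins were thus measured in glial cells of every diet and time with enough cells.

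**Figure D4:**
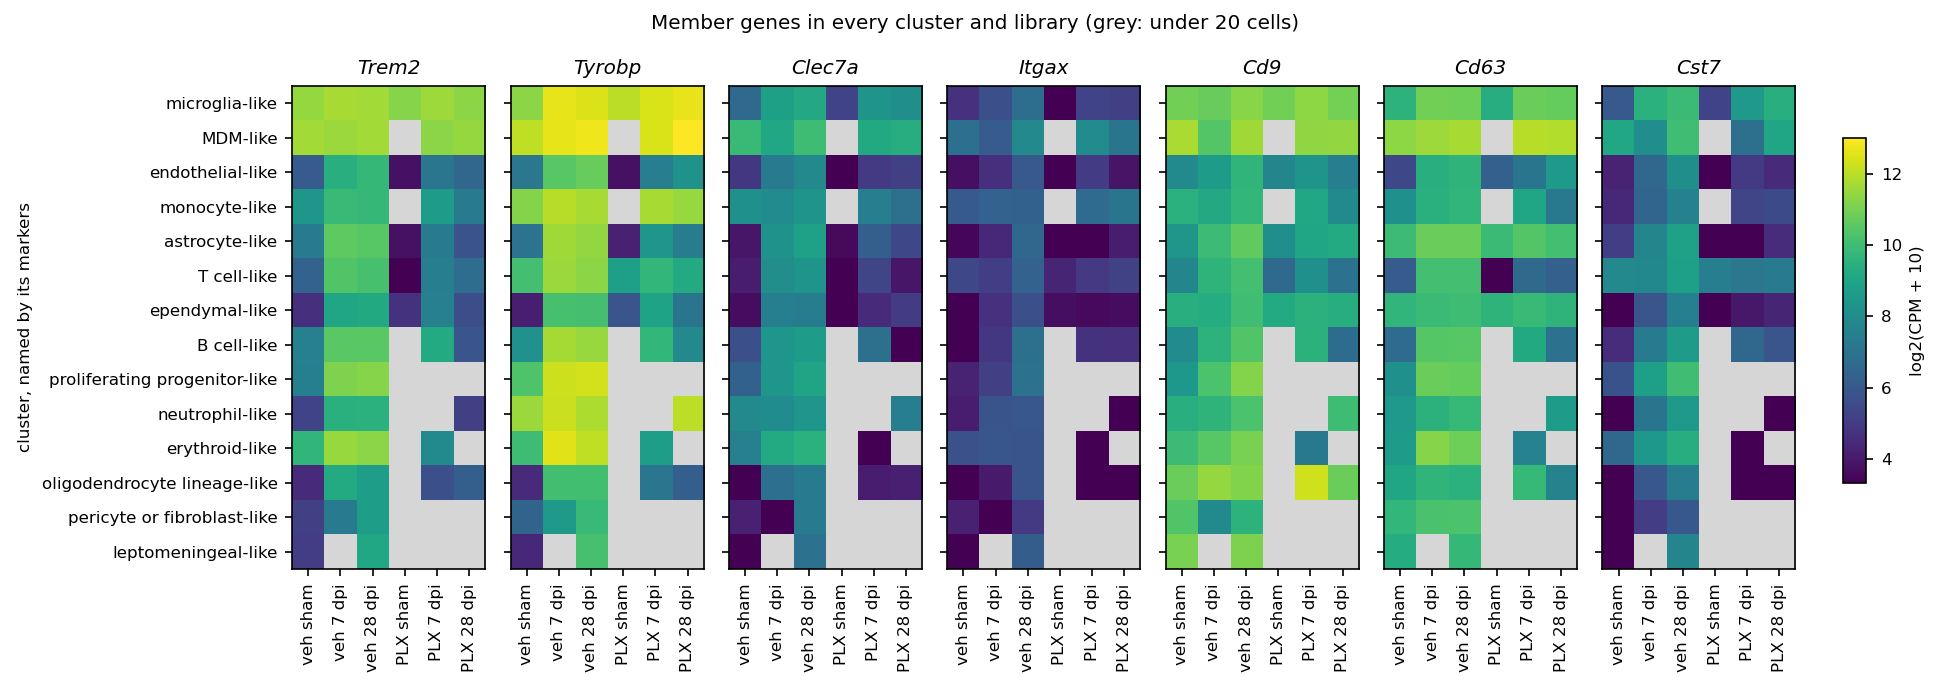
Level of each gene, as log2(CPM + 10) on a shared colour scale, in every cluster (rows, named from fixed markers) and library (columns). Grey marks groups under 20 cells. Trem2 is bright in both macrophage clusters of every library with enough cells, and in the injured vehicle libraries it is also raised in endothelial-like, astrocyte-like, T cell-like and B cell-like cells.

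Trem2 was at 58.2, 679 and 856 CPM in the endothelial-like cells of vehicle sham, 7 dpi and 28 dpi, and at 3.40, 127 and 81.7 CPM under PLX5622. In the astrocyte-like cells it was at 147, 1551 and 1413 CPM under vehicle and at 3.41, 143 and 46.2 CPM under PLX5622. The injured vehicle libraries were the high ones in both clusters. Without the cells holding 3 or more UMIs of the 12 myeloid genes, which made up 51.0% of the endothelial-like and 53.6% of the astrocyte-like cells at vehicle 7 dpi, Trem2 was at 74.1 and 151 CPM there. The 12 myeloid genes summed to 8233 CPM in the endothelial-like and 19749 CPM in the astrocyte-like cells of that library.

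In the endothelial-like cells of vehicle 7 dpi all 7 members lay at 22.2% to 28.4% of the level in the macrophage clusters of that library. Other macrophage genes lay at 20.6% to 29.5% in the same cells, and at 28 dpi the ranges were 26.0% to 30.2% for the members and 19.8% to 27.7% for those genes. Such a like share of every macrophage gene, members or not, was measured in the B cell-like cells too, at 35.4% to 62.4% for the members and 36.1% to 57.4% for the others at 7 dpi. Free RNA, doublets and macrophages within a cluster cannot be told apart by these values. Their part in the microglia-like and MDM-like levels was not tested beyond the cells left out above.

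**Figure D5:**
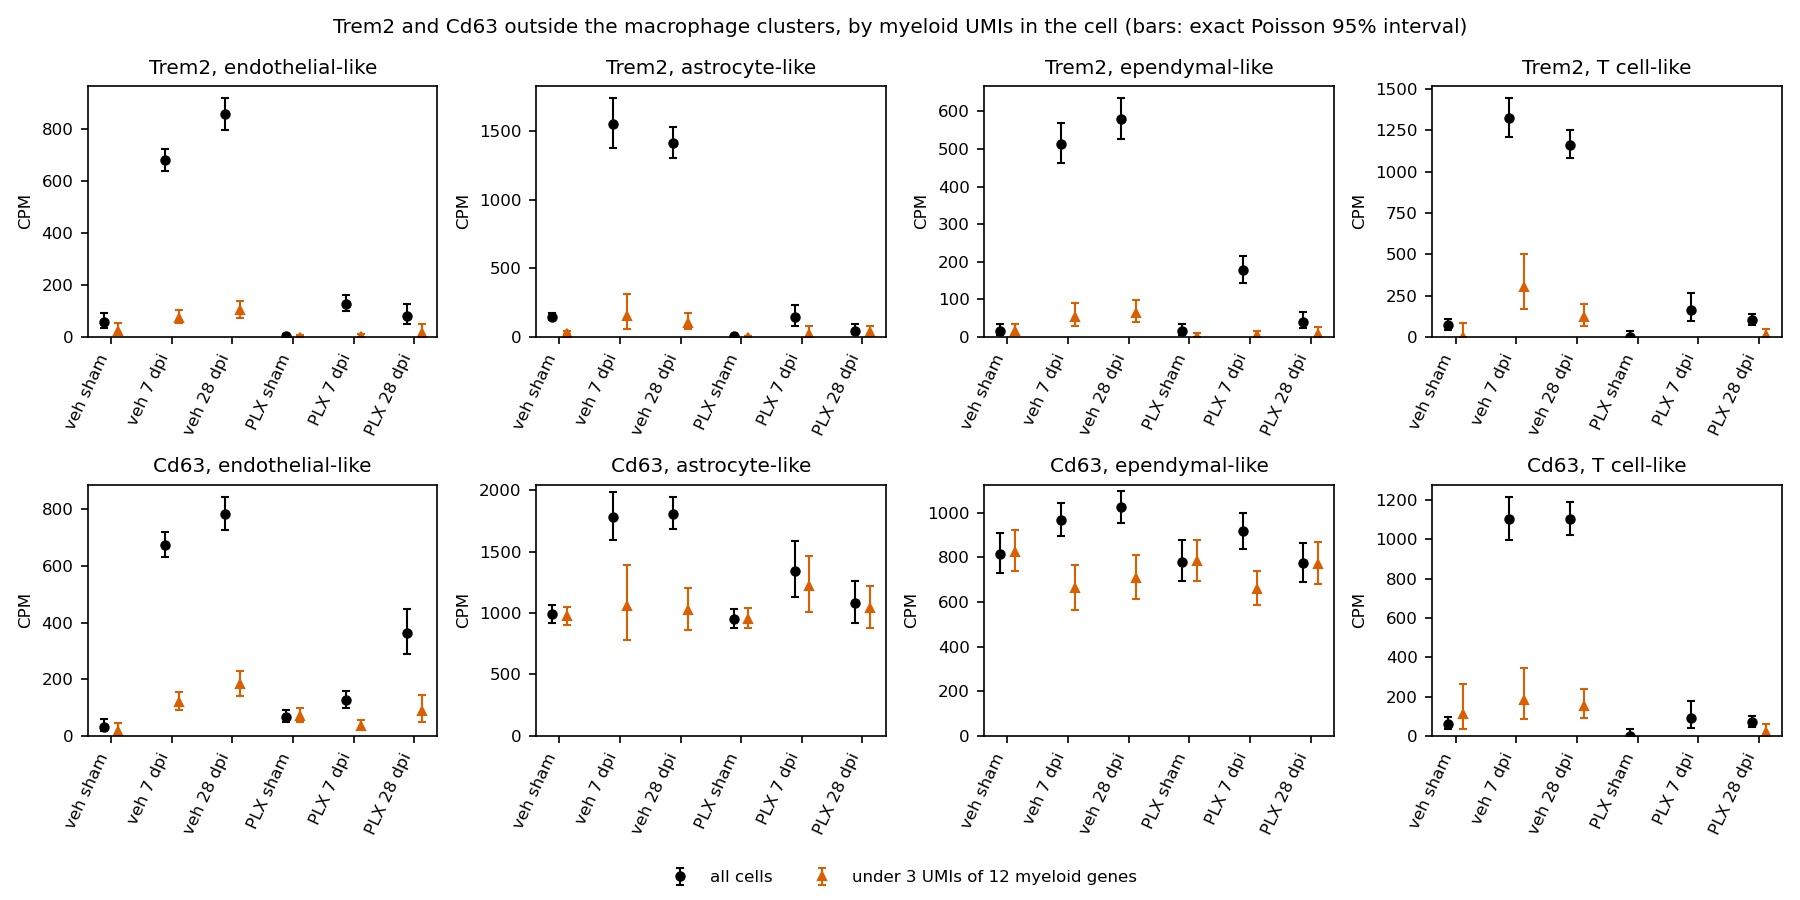
Trem2 (top) and Cd63 (bottom) in CPM, on linear axes from 0, in endothelial-like, astrocyte-like, ependymal-like and T cell-like cells of the 6 libraries, over all cells (circles) and over cells with under 3 UMIs of 12 myeloid genes (triangles). Bars are exact Poisson 95% intervals. Trem2 in endothelial-like cells of vehicle 7 dpi was 679 CPM over all cells and 74.1 CPM without the cells with myeloid UMIs, whereas Cd63 in ependymal-like cells stayed between 774 and 1023 CPM over all cells.

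The genes whose levels were most like each member's were found over 48 groups of at least 50 cells, 1 per cluster and library, among 7207 genes, by Pearson's r of log2(CPM + 10). The groups share libraries, depth and the background above, so that r is a description. For Trem2 the 3 closest were the complement genes C1qc (0.971), C1qa (0.969) and C1qb (0.968). For Tyrobp they were Fcer1g (0.983), an adaptor of the same kind, Mpeg1 (0.955) and Plek (0.953). For Clec7a they were Mpeg1 (0.946), the lysosomal protein gene Cd68 (0.928) and Trf (0.919), and for Itgax they were Il3ra (0.817), Bcl2a1d (0.798) and Cd48 (0.795). For Cst7 they were the lysosomal protease gene Ctsd (0.859), Lgals3bp (0.850) and C1qa (0.849). Those close to Cd63 included Bhlhe41 (0.867) and Ctsb (0.841), and Cd9 had Fnip1 (0.870), Timp2 (0.866) and Basp1 (0.859). Trem2, Tyrobp and Clec7a thus had closer neighbours than the other 4 members.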

How the data were processed

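Cells of mouse spinal cord were captured with the 10x 3′ v3 chemistry, and per the labels the submitters' processing notes name Cell Ranger and Seurat with GRCm38 or mm10. The authors deposited raw UMI counts per gene and cell, with a table that gives each cell's library and cluster. The cluster numbers are the authors', and their names here came from fixed marker genes. The methods set a limit on genes per cell, yet 716 cells with over 3000 genes were in the deposited counts and were kept. Counts were summed per cluster and library to CPM, with exact Poisson, Clopper-Pearson and conditional binomial 95% intervals that cover counting error only. A gene was compared between a pair of libraries where both held at least 100 UMIs of it together, and a call was a ratio past 2-fold. No test was run, since each condition was 1 library. UMIs mark 3′ ends and are not scaled for length, so levels were compared within a gene. Python 3.11.15, numpy 2.4.6, scipy 1.17.1 and scanpy 1.11.5 (Scrublet) were used, and edgeR 4.0.16 and DESeq2 1.42.0 for scaling factors only. The ratios and their intervals were checked on simulated counts. The members and gene lists were chosen with earlier results of these data known. All 7 members and the genes of the lists are named, by the 2 highest and 2 lowest ratios of each list, and for each member the 3 most alike genes, of which 1 is not reported here. Lilrb4a was matched through an older symbol. Doublets were left in. The 14 bulk samples were not analysed here, nor were protein sequences.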

Additional observations from a re-analysis of the deposited data

Results flagged for a closer look

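At 7 dpi over vehicle sham, 3 genes moved up in the microglia-like and down in the MDM-like cells of the same libraries. The log2 ratios were 2.29 and -0.71 for Clec7a, 1.42 and -0.82 for Itgax, and 3.71 and -1.09 for Cst7. In MDM-like cells, the log2 ratio of PLX5622 over vehicle for Itgax was 2.01 at 7 dpi and -0.85 at 28 dpi. These were the 4 of 42 pairs of comparisons in which the ratios lay on opposite sides of 0 with intervals that left 0 out and 1 of them was past 2-fold. With 1 library per condition, the difference was not tested in any of them.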

How the results depend on the processing

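Of 56 member ratios, 18 were past 2-fold, and all 18 kept their sign under each of the 9 alternatives run. The number of the 18 still past 2-fold was 17 with TMM, DESeq2 size factors or totals without 85 ribosomal protein genes, 12 with each cell weighted alike, 15 with cells thinned to 1000 UMIs, 18 with cells of at least 500 genes or without called doublets, 16 without cells with UMIs of other cell types, and 15 without cells with markers of the other macrophage type, an alternative chosen after seeing the data. In MDM-like cells at 7 dpi over sham, the members 2-fold lower went from 2 to 1 with TMM, with DESeq2, on thinning and without cells of either marker kind. At 28 dpi Itgax, the 1 member higher, came to 0.86 with each cell weighted alike and 0.97 without cells with UMIs of other cell types, and the members higher went from 1 to 2 with TMM, with DESeq2, on thinning and without cells with markers of the other macrophage type. For PLX5622 over vehicle in MDM-like cells, the members lower went from 1 to 0 at each time on thinning or with cells weighted alike, and those higher at 7 dpi from 1 to 2 without cells of either marker kind. In microglia-like cells the members lower under PLX5622 at 7 dpi went from 0 to 1 with TMM, DESeq2 or thinning and to 2 with cells weighted alike or without cells with MDM markers. At 28 dpi they went from 2 to 1 without ribosomal protein genes and to 0 with cells weighted alike, and the members above sham under vehicle went from 5 to 3 without cells with MDM markers. Clec7a in microglia-like cells of PLX5622 sham over vehicle sham, from 4 UMIs, turned from -1.67 to 0.21 on thinning. The cause was not tested in any of these. No paired analysis was possible because each condition was 1 library and the labels give the single-cell samples no shared replicate numbers. With 29 to 126 microglia-like cells under PLX5622, Itgax rested on 0 to 11 UMIs, and counting error limits it most. With genes of at least 20 UMIs compared in place of 100, the share of all genes past 2-fold was 3.15% higher and 9.45% lower in MDM-like cells at 28 dpi over sham, and for PLX5622 over vehicle 4.49% and 4.50% at 7 dpi and 4.79% and 5.20% at 28 dpi in MDM-like cells. It was 7.41% and 6.35% higher at 7 and 28 dpi in microglia-like cells. These were the shares that moved by over 1.5 times. Counting cells with at least 2 UMIs of Cst7 gave 3.12%, 41.3% and 35.9% of the microglia-like cells of vehicle sham, 7 dpi and 28 dpi, in the same order as with 1 UMI.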
